A study of Mus musculus with 13 samples.

Results

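Fos, Fosb, Jun, Junb, Egr1, Atf3 and Ier2, immediate early genes that encode transcriptional regulators, and Hspa1a, Hspa1b and Dnajb1, heat shock genes that encode chaperones, were followed through a chemical conversion of mouse fibroblasts toward corneal endothelial cells. The 10 genes were taken by name out of the 54232 genes with an Ensembl ID in the deposited table. Earlier results of these data were known when they were chosen. Immediate early genes are transcribed within minutes of a growth factor, cytokine or stress signal, without new protein synthesis, and their short-lived mRNAs soon decay. Fos and Jun proteins pair through leucine zippers to form the AP-1 transcription factors. Heat shock genes are switched on by heat shock factor 1 when unfolded proteins build up, and their products hold and refold those proteins.

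All cells came from C57BL/6 mice. Primary corneal endothelial cells taken at postnatal day 30 (pCEC) gave 1 library. Embryonic fibroblasts (MEFs) taken at E13.5, the starting cells, gave 3 libraries (D0). MEF-derived cells of treatment day 7 (D7, 3 libraries) and day 12 (D12, 2 libraries) bear the label of chemically induced neural crest cells, and those labelled as chemically induced corneal endothelial cells (ciCEC) carry the marks P1 and P8 (2 libraries each), which the labels do not expand. The labels name neither the compounds used nor a transgene, and nothing in them states that replicates were separate cultures, so p-values cover library-to-library spread that may be technical only.

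Levels are FPKM, which scale reads to transcript length and library total. The table's ID column matched the line order of D0 alone, and the line of every gene in the other groups was inferred from the order of the IDs and from whole read counts. All 10 genes were placed in all 6 groups. In the 5 inferred groups, only Hspa1a always stood at the first place that its ID gives. Atf3 and Hspa1b did so in 1 group, and each of the others in 2. The accuracy check on D0 was not split by such places. Library totals recovered from the values ran between 9997865 reads in P1 replicate 2 and 24030674 in D0 replicate 2.

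Marker lists divided the libraries in ways that the labels do not give. The 8 placed epithelial markers (10 listed) summed to 3396 FPKM in pCEC, to between 2.94 and 13.8 FPKM in the libraries of D0, D7 and D12, to 7090 and 9665 FPKM in P1, and to 8158 and 23.4 FPKM in P8 replicates 1 and 2. P8 replicate 2 instead held 4148 FPKM of the 8 fibroblast markers and 944 FPKM of the 10 macrophage markers, against 67.3 and 58.5 FPKM in P8 replicate 1. The macrophage markers also summed to between 1216 and 1296 FPKM in D0 and to 8.57 to 14.6 FPKM in D7 and D12. The 14 corneal endothelium markers summed to 1203 FPKM in pCEC with 10 at 1 FPKM or more, against 470 to 491 FPKM in D0 with 11 or 12 at that level. Within that list, Col8a2 and Aqp1 stood at 0.0619 and 0.184 FPKM in pCEC. In the same library Krt5 and Krt14, keratins of basal epithelium, stood at 676 and 644 FPKM. The 10 neural crest markers summed to 1005 to 1059 FPKM in D7 and to 1126 and 1233 FPKM in D12, against 91.9 to 110 FPKM in D0, and to 107 and 108 FPKM in P1. Twist1, which mesenchymal cells also express, held 880 to 1136 FPKM of the D7 and D12 sums, and Sox10 and Foxd3 reached at most 0.480 and 0 FPKM there. In bulk RNA, fewer cells of a type and less RNA per cell cannot be told apart.

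3 promoters are shown: that of Fos, the prototype immediate early gene, and those of Hspa1a and Hspa1b, whose reads may not be separable because the genes are near-identical copies. Of the 10 genes, 8 matched the RefSeq promoter table (GRCm38.p6). In that table no usable window was found for Ier2 or Egr1. Each sequence is the 250 bases before the annotated start, 5′ to 3′. Capitals mark matches, on either strand, to the cyclic AMP response element core TGACG, to a pair of heat shock factor units GAANNTTC, to the CCAAT box, to the GC box GGGCGG or to the TATA box TATAAA.
Fos, chr12:85473640-85473889, plus strand: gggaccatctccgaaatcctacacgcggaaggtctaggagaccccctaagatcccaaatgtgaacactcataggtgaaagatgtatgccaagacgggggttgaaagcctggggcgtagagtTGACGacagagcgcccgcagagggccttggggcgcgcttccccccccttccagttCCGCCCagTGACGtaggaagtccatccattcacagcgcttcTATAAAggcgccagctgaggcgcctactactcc
Hspa1a, chr17:34972157-34972406, minus strand: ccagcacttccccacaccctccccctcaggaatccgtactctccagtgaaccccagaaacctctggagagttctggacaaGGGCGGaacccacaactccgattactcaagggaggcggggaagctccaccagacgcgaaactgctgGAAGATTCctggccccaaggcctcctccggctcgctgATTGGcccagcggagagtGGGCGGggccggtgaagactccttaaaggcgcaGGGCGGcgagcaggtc
Hspa1b, chr17:34959239-34959488, minus strand: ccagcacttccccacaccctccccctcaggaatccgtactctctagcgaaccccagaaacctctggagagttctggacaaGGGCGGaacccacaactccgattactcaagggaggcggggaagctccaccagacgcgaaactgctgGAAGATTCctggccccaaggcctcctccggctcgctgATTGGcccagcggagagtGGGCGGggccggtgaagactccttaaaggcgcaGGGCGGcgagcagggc
The windows of Hspa1a and Hspa1b were identical at 247 of 250 bases. Both held GAANNTTC at 104 to 97 bases and a CCAAT box at 67 to 63 bases before the start. Fos held TGACG at 66 to 62 bases and at 129 to 125 bases before the start, and a TATA box at 33 to 28 bases. TGACG was present in 5 of the 8 members with a window (Fos, Fosb, Junb, Atf3 and Dnajb1), against 17.8% of 32851 RefSeq windows of this length. GAANNTTC was present in 3 of 8 (Jun, Hspa1a and Hspa1b), against 6.69%, and CCAAT in 5 of 8, against 33.8%. GGGCGG was present in 7 of 8, against 32.7%, and TATAAA in 1 of 8, against 12.4%. The serum response factor site (CArG box) and the AP-1 site TGANTCA were present in 0 of 8, against 1.47% and 6.75%. The 8 members had 9 windows, because Dnajb1 had more than 1 and counted where either matched, while the RefSeq shares are per window. Hspa1a and Hspa1b, near-identical copies, counted as separate members. A match is not a bound site, and its absence here says only that these letters are not in this window.

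The main pattern was a split by library. Within D0, D7 and D12, each gene varied by less than 2-fold between replicates. In each, 0 of 10 genes were 2-fold apart, against 1.69%, 1.01% and 0.979% of the 16249 genes tested. In P1, 6 of the 10 genes were 2-fold or more apart between replicates on the log2(FPKM + 1) scale, against 18.1% of the 16249 genes tested, and in P8 again 6 of 10, against 33% of genes. On a scale of standard deviations over the 13 libraries, the mean of the 10 genes was 1.86 in P8 replicate 1 and 1.31 in P1 replicate 2. The other 11 libraries lay between -0.60 (D0 replicate 3) and 0.27 (P8 replicate 2). The group comparisons carry that replicate spread. Calls come from limma on log2(FPKM + 1) over the 16249 genes tested, and need both a Benjamini-Hochberg adjusted p under 0.05 and a 2-fold or larger difference on that scale, on which low genes appear to change less than they do. Errors of fold changes are standard errors (SE). Where leaving out a library leaves 1 in its group, that library is taken to vary like the other groups.

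**Figure D1:**
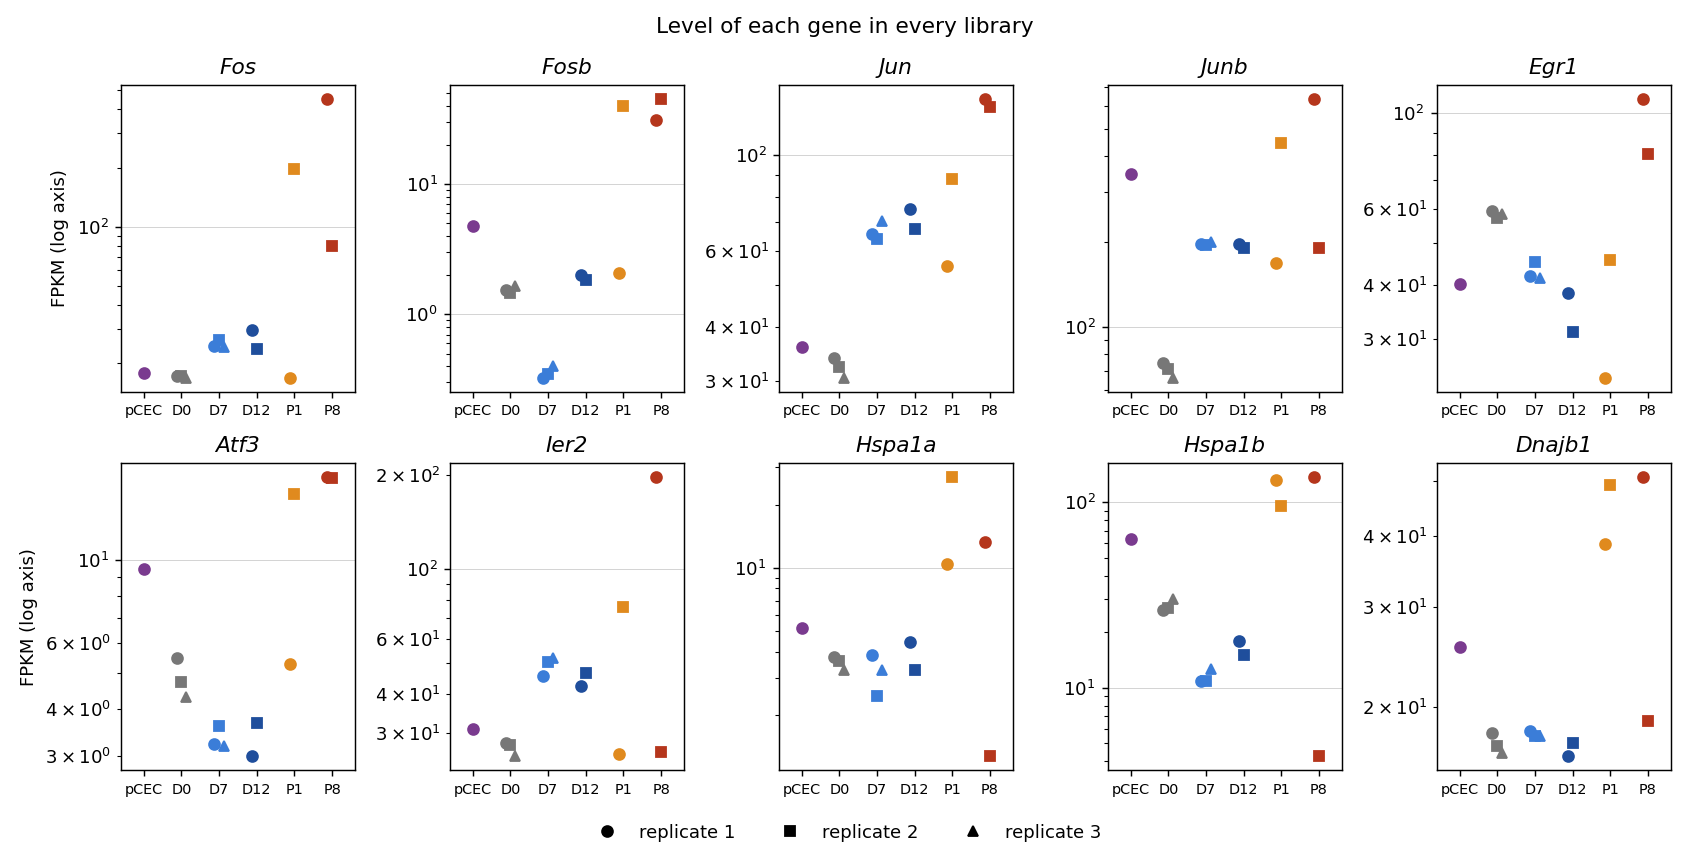
FPKM of each gene on a logarithmic axis, 1 panel per gene, with libraries ordered as pCEC, D0, D7, D12, P1 and P8 and 1 marker shape per replicate number. Replicates of D0, D7 and D12 lie close together, while Fos in P1 stands at 16.9 and 197 FPKM and Hspa1b in P8 at 136 and 4.27 FPKM.

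Fos (ENSMUSG00000021250, chr12:85473890-85477273, plus strand, GRCm38), the prototype AP-1 partner, was at 17.9 FPKM in pCEC, at 17.3, 17.2 and 16.9 FPKM in D0 and at 24.6, 26.3 and 24.3 FPKM in D7. It was at 29.6 and 23.8 FPKM in D12, at 16.9 and 197 FPKM in P1 and at 450.1 and 79.3 FPKM in P8, replicates in numerical order here and below. P1 replicate 1 was thus at the level of the fibroblasts and P1 replicate 2 above it 11.6-fold, and no comparison called Fos. Against P1, Fos in P8 differed by a log2 fold change of 1.68 ± 1.01 (SE; adjusted p = 0.420 by limma with Benjamini-Hochberg adjustment), with overlapping groups.

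Fosb (ENSMUSG00000003545, chr7:19302696-19310051, minus strand), a Fos relative known for its stable truncated isoform in neurons, was at 4.80 FPKM in pCEC. It was at 1.55, 1.45 and 1.65 FPKM in D0, at 0.326, 0.348 and 0.404 FPKM in D7 (20 to 24 reads) and at 2.00 and 1.82 FPKM in D12. In P1 it was at 2.09 and 39.7 FPKM and in P8 at 31.3 and 45.4 FPKM. Its 3 highest libraries, P1 replicate 2 and both of P8, were thus the only ones above 5 FPKM, and they include the P8 library with fibroblast markers. The D7 level lay below that of D0 in every library, as for 40.0% of the 16249 genes tested. Its log2 fold change was -0.91 ± 0.73 and did not pass the test over all groups (adjusted p = 0.361). With the D0 and D7 libraries alone in the fit, its adjusted p was 3.54e-05, at a size under the fold limit.

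Jun (ENSMUSG00000052684, chr4:95049034-95052222, minus strand), the main AP-1 partner of Fos, was at 35.9 FPKM in pCEC and at 34.0, 32.3 and 30.5 FPKM in D0. It was at 65.5, 64.01 and 70.4 FPKM in D7, at 75.1 and 67.3 FPKM in D12, at 55.2 and 87.9 FPKM in P1 and at 135 and 129 FPKM in P8. Every D7 library exceeded every D0 library, as for 37.6% of the 16249 genes tested, with 40.0% separated the other way. Both P8 libraries, which differ in their markers, agreed within 1.04-fold. Jun was higher in D7 than in D0 by 1.03 ± 0.16 on the log2 scale (adjusted p = 0.000925) and higher in P1 than in D0 by 1.09 ± 0.17 (adjusted p = 0.0024). The size fell under 2-fold without D0 replicate 3 or D7 replicate 3 in D7 against D0 (0.99 each) and without P1 replicate 2 in P1 against D0 (0.76). Its value in P8 against P1, 0.91 ± 0.19, missed both thresholds (adjusted p = 0.0523).

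Junb (ENSMUSG00000052837, chr8:84974484-84978718, minus strand), an AP-1 subunit with roles in epidermis and blood cells, had the highest FPKM of the 10 genes in all 13 libraries. It was at 346 FPKM in pCEC and at 74.8, 71.3 and 66.3 FPKM in D0. It was at 196, 195 and 199 FPKM in D7, at 196 and 189.8 FPKM in D12, at 168 and 446 FPKM in P1 and at 637 and 189 FPKM in P8. The libraries of D7, D12, P1, P8 and pCEC all lay above those of D0. Over all genes tested, D7 lay wholly above D0 for 37.6%, P1 for 32.0% and pCEC for 47.6%. Junb was higher than in D0 in D7 (1.46 ± 0.44, adjusted p = 0.0247), in P1 (1.94 ± 0.49, adjusted p = 0.0175) and in pCEC (2.28 ± 0.62, adjusted p = 0.0237), as log2 fold changes. These calls share the D0 libraries. The call in D7 was lost when any 1 library of D0 or D7 was left out (adjusted p between 0.0581 and 0.0740). The call in pCEC was lost without any 1 D0 library (0.0509 to 0.0564), and that in P1 without D0 replicate 3 (0.0535) or P1 replicate 2 (0.122).

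Egr1 (ENSMUSG00000038418, chr18:34859823-34864984, plus strand), a zinc finger factor induced by growth factors, followed another order. It was at 40.2 FPKM in pCEC, at 59.4, 57.0 and 58.4 FPKM in D0 and at 41.8, 45.1 and 41.4 FPKM in D7. It was at 38.3 and 31.0 FPKM in D12, at 24.3 and 45.8 FPKM in P1 and at 108 and 80.2 FPKM in P8. Both P8 libraries stood above all others, and D0 came next. Egr1 was higher in P8 than in P1 by 1.45 ± 0.26 (log2, adjusted p = 0.0298), the 1 gene of the 10 called there. The call was lost without any 1 library of D0, D7 or D12 (adjusted p between 0.0547 and 0.0720), where the size was 1.45 each time, and in a fit of P8 and P1 alone (adjusted p = 1). Against D0, Egr1 in P1 gave -0.79 ± 0.24 (adjusted p = 0.0352), under the fold limit, and -1.23 (adjusted p = 0.0028) without P1 replicate 2.

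Atf3 (ENSMUSG00000026628, chr1:191170296-191218039, minus strand), a stress-induced repressor that can dimerize with AP-1 proteins, was at 9.43 FPKM in pCEC and at 5.46, 4.73 and 4.31 FPKM in D0. It was at 3.23, 3.60 and 3.19 FPKM in D7, at 3.00 and 3.66 FPKM in D12, at 5.27 and 15.0 FPKM in P1 and at 16.6 and 16.5 FPKM in P8. The D7 and D12 libraries were the lowest (74 to 102 reads) and both P8 libraries the highest. Atf3 was higher in P1 than in D12 by 1.21 ± 0.36 (log2, adjusted p = 0.0246), but by 0.54 (adjusted p = 0.0469) without P1 replicate 2, and the adjusted p was 0.110 without D12 replicate 1, 0.0774 without D12 replicate 2, 0.126 in a fit of P1 and D12 alone and 0.0739 by voom on recovered reads. With a pseudocount of 5 the size was 0.78, under the fold limit.

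Ier2 (ENSMUSG00000053560, chr8:84661331-84662852, minus strand), a nuclear protein of the growth factor response, was at 30.8 FPKM in pCEC, at 27.7, 27.3 and 25.2 FPKM in D0 and at 45.4, 50.5 and 52.1 FPKM in D7. It was at 42.3 and 46.7 FPKM in D12, at 25.6 and 75.6 FPKM in P1 and at 197 and 26.0 FPKM in P8. P1 replicate 1 and P8 replicate 2 were at the level of D0, and no comparison called Ier2. Without P8 replicate 2, the library with fibroblast markers, Ier2 was higher in P8 than in P1 by 2.13 ± 0.48 (log2, adjusted p = 0.0209), with 1 P8 library left.

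Hspa1a (ENSMUSG00000091971, chr17:34969190-34972156, minus strand) and Hspa1b (ENSMUSG00000090877, chr17:34956436-34959238, minus strand) encode the inducible Hsp70 chaperone. Their longest open reading frames, of 1926 and 1929 bases, shared 1919 identical bases, with 638 in the longest unbroken run. How reads that fit both genes were counted is not given in the sources used here, so the division between the 2 genes is uncertain. Hspa1a was at 5.17 FPKM in pCEC, at 3.78, 3.60 and 3.29 FPKM in D0, at 3.86, 2.46 and 3.29 FPKM in D7 and at 4.43 and 3.26 FPKM in D12. It was at 10.5 and 27.0 FPKM in P1 and at 13.3 and 1.28 FPKM in P8. Hspa1b was at 63.0 FPKM in pCEC, at 26.3, 26.9 and 29.9 FPKM in D0, at 10.9, 10.8 and 12.6 FPKM in D7 and at 17.8 and 15.0 FPKM in D12. It was at 132 and 95.4 FPKM in P1 and at 136 and 4.27 FPKM in P8. For both genes the P1 libraries and P8 replicate 1 were the 3 highest and P8 replicate 2 the lowest of all 13. Hspa1b in P1 against D12 gave 2.71 ± 1.12 (log2, adjusted p = 0.0804) and Hspa1a 1.90 ± 0.72 (adjusted p = 0.0620). With either P8 library left out, so that the gap between them did not enter the error estimate, both were called at the same sizes. Without P8 replicate 2 the errors were 0.16 for Hspa1b (adjusted p = 2.72e-06) and 0.37 for Hspa1a (adjusted p = 0.00231). The same fits called Hspa1b lower in D7 than in D0, at -1.21 ± 0.13 without P8 replicate 2 (adjusted p = 0.000105), against an adjusted p of 0.327 with all libraries.

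Dnajb1 (ENSMUSG00000005483, chr8:83608193-83612653, plus strand) encodes an Hsp40 co-chaperone that delivers substrates to Hsp70. It was at 25.5 FPKM in pCEC, at 17.98, 17.1 and 16.6 FPKM in D0, at 18.1, 17.8 and 17.8 FPKM in D7 and at 16.4 and 17.3 FPKM in D12. It was at 38.8 and 49.2 FPKM in P1 and at 50.8 and 18.9 FPKM in P8. The libraries of D0, D7 and D12 lay between 16.4 and 18.1 FPKM, and both P1 libraries were above all of them. Over all genes tested, P1 lay wholly above D12 for 37.9% and wholly above D0 for 32.0%. Dnajb1 was higher in P1 than in D12 by 1.33 ± 0.35 (log2, adjusted p = 0.0156) and higher than in D0 by 1.30 ± 0.32 (adjusted p = 0.0163). Both calls were lost without P1 replicate 2 (adjusted p = 0.0658 and 0.0878), with values of 1.16 and 1.13, and that against D12 also with either D12 library left out (0.0685 and 0.0692). The call against D0 was also lost without D0 replicate 3 (0.0502).

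The order of the 6 groups by the mean of log2(FPKM + 1) differed between the genes. P8 was highest for all 7 immediate early genes and P1 for all 3 heat shock genes, in both cases on means that join unlike replicates. D0 was the lowest group for Fos, Jun, Junb and Ier2, D7 for Fosb, Hspa1a and Hspa1b, D12 for Atf3 and Dnajb1, and P1 for Egr1. Of the 50 pairs of neighbours in these orders, 3 had an adjusted p under 0.05 in the fit over all groups. These were Jun in P8 over D12 (0.00815) and in D7 over pCEC (0.0118), and Junb in D12 over D0 (0.0437). For all other neighbours the adjusted p was above 0.05, so the fit did not separate them.

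Day 7 cells against fibroblasts compares cells after the first week of treatment with the starting cells. No untreated culture of day 7 is among the samples, so treatment and time in culture cannot be told apart. Jun and Junb rose, and 2 of 10 genes were called higher and 0 lower, against 22.6% of all genes called (11.2% higher and 11.4% lower). The median log2 fold change of the 10 genes was -0.04, against -0.01 over all genes. Outside the 10, the other immediate early genes gave 9 higher and 3 lower of 35 tested. Ier3, an anti-apoptotic response gene, rose to 371 FPKM in D7, against 43.5 FPKM in D0, and the growth factor-induced zinc finger gene Egr3 to 8.72 FPKM, against 1.05 FPKM. The kinase gene Sgk1 rose to 287 FPKM, against 60.04 FPKM, and the YAP and TGF-beta target Ctgf fell to 8.69 FPKM in D7, against 140 FPKM in D0. Of 9 other AP-1 subunits tested, 2 rose and 2 fell. Fosl1, a Fos relative, rose most, to 119 FPKM in D7, against 6.30 FPKM in D0 (log2 fold change 4.04 ± 0.78, adjusted p = 0.0032), and the AP-1 repressor Jdp2 fell to 14.3 FPKM, against 60.9 FPKM.

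Among 19 inhibitors that feed back on immediate early induction, 4 rose and 2 fell in D7 against D0. The phosphatase gene Dusp10 stood at 61.0 FPKM in D7, against 3.28 FPKM in D0, and the NF-kappaB inhibitor gene Nfkbia at 141 FPKM, against 21.0 FPKM. Of 25 cytosolic chaperones and other heat shock factor targets, 3 rose and 0 fell. The small heat shock protein genes Cryab and Hspb8 rose to 961 and 288 FPKM in D7, against 131 and 42.8 FPKM in D0, and the mitochondrial chaperonin gene Hspe1 to 265 FPKM, against 109 FPKM. The 3 heat shock factors gave 0 calls, also 0 at an unadjusted p under 0.05 and 0 by voom. Of 17 upstream regulators, Crem alone was called, at 27.2 FPKM in D7 and 11.7 FPKM in D0. Of 14 genes of the integrated stress and unfolded protein responses, in which Atf3 acts, 0 rose and 4 fell. Trib3, Chac1, Asns and Atf5, targets of Atf4, stood at 1.70, 1.24, 36.0 and 52.6 FPKM in D7, against 60.4, 14.1, 177 and 161 FPKM in D0. The macrophage marker sum moved with this comparison (8.57 to 13.2 FPKM in D7, against 1216 to 1296 FPKM in D0), and its part in these values was not tested.

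Day 12 against day 7 asks what changed in the last days of induction. By limma, 0 of the 10 genes were called, with 0 at an unadjusted p under 0.05 and 0 by voom, against 0.265% of all genes called (0.154% higher and 0.111% lower). Fosb, at 2.00 and 1.82 FPKM in D12, against 0.326 to 0.404 FPKM in D7, gave the largest value of the 10, 1.10 ± 0.82 on the log2 scale (adjusted p = 1). It was called at the same size without P1 replicate 1 (adjusted p = 0.0337), without P1 replicate 2 (0.0370) and in a fit of D7 and D12 alone (0.00569). The 95% intervals of all 10 genes, Fosb among them, held 0 in the fit over all groups. They ran from -0.30 to 0.49 for Jun, the narrowest, to -1.83 to 2.80 for Hspa1b, the widest. Of the 122 genes tested in the other 7 lists, limma called 0, with 9 at an unadjusted p under 0.05, and voom 0.

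P1 ciCEC against day 12 asks what the step from the induced neural crest label to the ciCEC label changed. Atf3 and Dnajb1 rose, and 2 of 10 genes were called higher and 0 lower, against 27.9% of all genes (15.2% higher and 12.7% lower). The median log2 fold change was 1.16 for the 10 genes and 0.11 over all genes. Without P1 replicate 1, Fos (2.84, adjusted p = 0.0271) and Fosb (3.81, adjusted p = 2.22e-05) joined these calls. Without P1 replicate 2, 0 of the 10 were called. The other immediate early genes gave 10 higher and 8 lower of 35. Ctgf, Bhlhe40, a circadian repressor gene, and Gadd45b, a stress response gene, rose to 152, 257 and 116 FPKM in P1, against 7.79, 18.2 and 11.3 FPKM in D12. The nuclear receptor gene Nr4a1 fell to 6.99 FPKM in P1, against 57.8 FPKM in D12. Of the AP-1 subunits, Fosl1 fell to 12.2 FPKM, against 149.5 FPKM, and Jdp2 and Fosl2 rose to 69.2 and 145 FPKM, against 13.8 and 50.3 FPKM in D12.

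Feedback inhibitors gave 1 higher and 7 lower of 19 in P1 against D12. The growth factor signal inhibitors Spry4 and Spry2 fell to 0.586 and 7.27 FPKM in P1, against 15.2 and 29.7 FPKM in D12, and the ERK phosphatase gene Dusp6 to 24.8 FPKM, against 78.7 FPKM. The chaperone list gave 3 higher and 6 lower of 25, while Dnajb1 rose. Hspb1, a small heat shock protein gene, rose to 583 FPKM in P1, against 93.9 FPKM in D12. Cryab, Hspb8 and Hspe1 fell to 147, 80.4 and 69.8 FPKM in P1, against 1654, 366 and 313 FPKM in D12. Hsf4 was called among the 3 heat shock factors, at 3.30 FPKM in P1 and 0.530 FPKM in D12. The upstream regulators gave 1 higher (Map3k1, 35.4 FPKM in P1 and 3.06 FPKM in D12) and 2 lower (Crem and Elk3) of 17, and the integrated stress list 1 higher (Herpud1) and 1 lower (Atf5) of 14. The epithelial marker sum was 7090 and 9665 FPKM in P1, against 5.73 and 4.10 FPKM in D12, and its part in these differences was not tested.

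P1 ciCEC against fibroblasts, the comparison over the whole conversion, called Jun, Junb and Dnajb1 higher and 0 of the 10 lower, against 20.0% of all genes (11.2% higher and 8.80% lower). The median was 1.51 for the 10 genes and 0.04 over all genes, as log2 fold changes. With either P8 library left out, Hspa1a and Hspa1b were called as well, at 1.98 ± 0.34 (adjusted p = 0.00135) and 1.99 ± 0.15 (adjusted p = 9.92e-06) without P8 replicate 2, and without P1 replicate 1 the calls were 7 of 10. Without P1 replicate 2, Jun, Junb and Dnajb1 all lost their calls and Egr1 was called lower. The macrophage marker sum was 21.1 and 18.04 FPKM in P1, against 1216 to 1296 FPKM in D0, and the fibroblast sum 474 and 1102 FPKM, against 22330 to 23230 FPKM. The epithelial sum was 7090 and 9665 FPKM in P1, against 11.6 to 13.8 FPKM in D0, and the part of these markers in the differences was not tested. The other lists gave 9 higher and 3 lower of 35 immediate early genes, 6 and 4 of 19 feedback inhibitors, 1 and 1 of 25 chaperones, and 1 and 5 of 14 integrated stress genes. Klf10, a TGF-beta-induced repressor gene, had the largest fold of these immediate early genes, at 128 FPKM in P1 and 8.63 FPKM in D0. The collagen chaperone gene Serpinh1 fell to 215 FPKM in P1, against 1671 FPKM in D0.

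**Figure D2:**
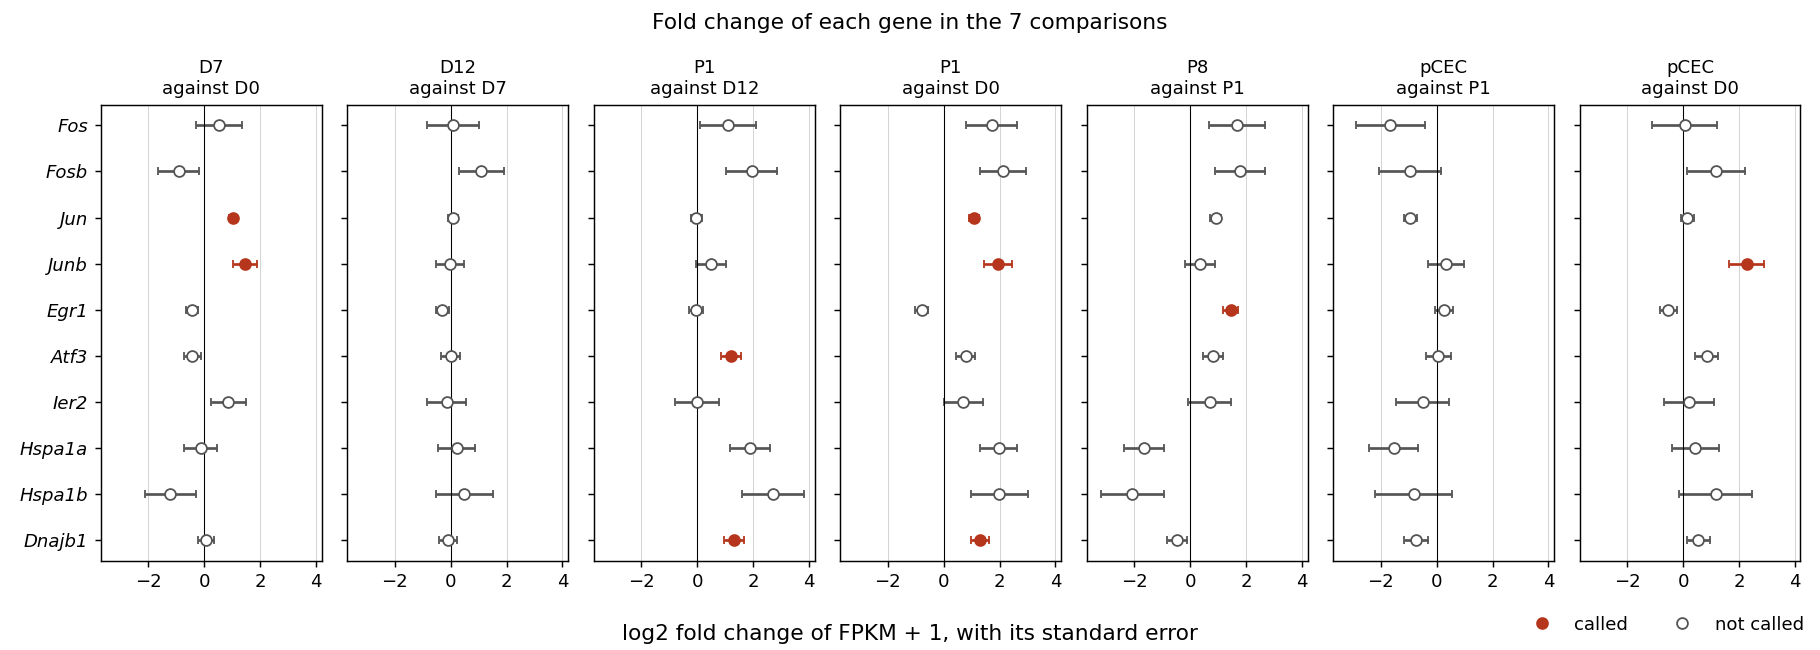
Log2 fold change of FPKM + 1 for each gene, 1 panel per comparison with the first-named group over the second, with bars of 1 standard error and filled points where a gene was called. The calls number 2 in D7 against D0, 0 in D12 against D7, 2 in P1 against D12, 3 in P1 against D0, 1 in P8 against P1, 0 in pCEC against P1 and 1 in pCEC against D0.

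P8 against P1 compares ciCEC libraries by their mark, and the labels do not say what the marks stand for. Egr1 rose, as 1 of 10 genes called higher and 0 lower, against 1.33% of all genes (0.338% higher and 0.991% lower). The P8 libraries do not resemble each other in their markers, and 6 of the 10 genes were 2-fold or more apart between them. The difference was not limited to markers. Over placed genes with at least 1 FPKM in a library, P8 replicate 2 had a Spearman's rho of 0.76 with P8 replicate 1. With the D0 libraries its rho was 0.919 to 0.921. Over all genes, 16.7% were 2-fold or more higher in replicate 1 than in replicate 2 and 16.2% lower. The part of the marker difference in the split of the 10 genes was not tested. P8 replicate 1, with the epithelial markers, was above replicate 2 for Hspa1b 31.9-fold, Hspa1a 10.4-fold, Ier2 7.59-fold, Fos 5.68-fold, Junb 3.36-fold and Dnajb1 2.69-fold. Jun, Atf3, Egr1 and Fosb were within 1.45-fold between the same 2 libraries. With only P8 replicate 2 kept, Hspa1b (-4.43, adjusted p = 1.11e-06), Hspa1a (-2.98, adjusted p = 0.00105) and Dnajb1 (-1.17, adjusted p = 0.000289) were called lower than in P1 and Egr1 higher (1.24, adjusted p = 0.0114). With only P8 replicate 1 kept, Egr1 and Ier2 were called higher. These p-values take the lone P8 library to vary like the other groups and do not hold the gap between the P8 libraries, which was 4.70 on the log2 scale for Hspa1b. Without P1 replicate 2, Fosb, Jun and Atf3 joined Egr1 as higher in P8. Of the 122 genes in the other lists limma called 0, with 27 at an unadjusted p under 0.05, and voom called 1.

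The P1 replicates also differed. Their epithelial marker sums were 7090 FPKM in replicate 1 and 9665 FPKM in replicate 2. Of the 6 genes 2-fold or more apart in P1, 4 were also so in P8 (Fos, Junb, Ier2 and Hspa1a), while Fosb and Atf3 were so in P1 and not in P8. P1 replicate 2 was above replicate 1 for 9 of the 10 genes, by 19.0-fold for Fosb, 11.6-fold for Fos and 1.27-fold to 2.95-fold for the other 7. Hspa1b was the exception, at 95.4 FPKM in replicate 2 and 132 FPKM in replicate 1. Over all genes the median of replicate 2 minus replicate 1 was -0.10 on the log2(FPKM + 1) scale, with 8.86% of genes 2-fold or more higher and 9.26% lower. P1 replicate 2 also had the lowest read total, 9997865 against 22587267 in replicate 1, and more fibroblast marker signal, 1102 FPKM against 474 FPKM. The part of depth and of the marker sums in the difference was not tested.

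**Figure D3:**
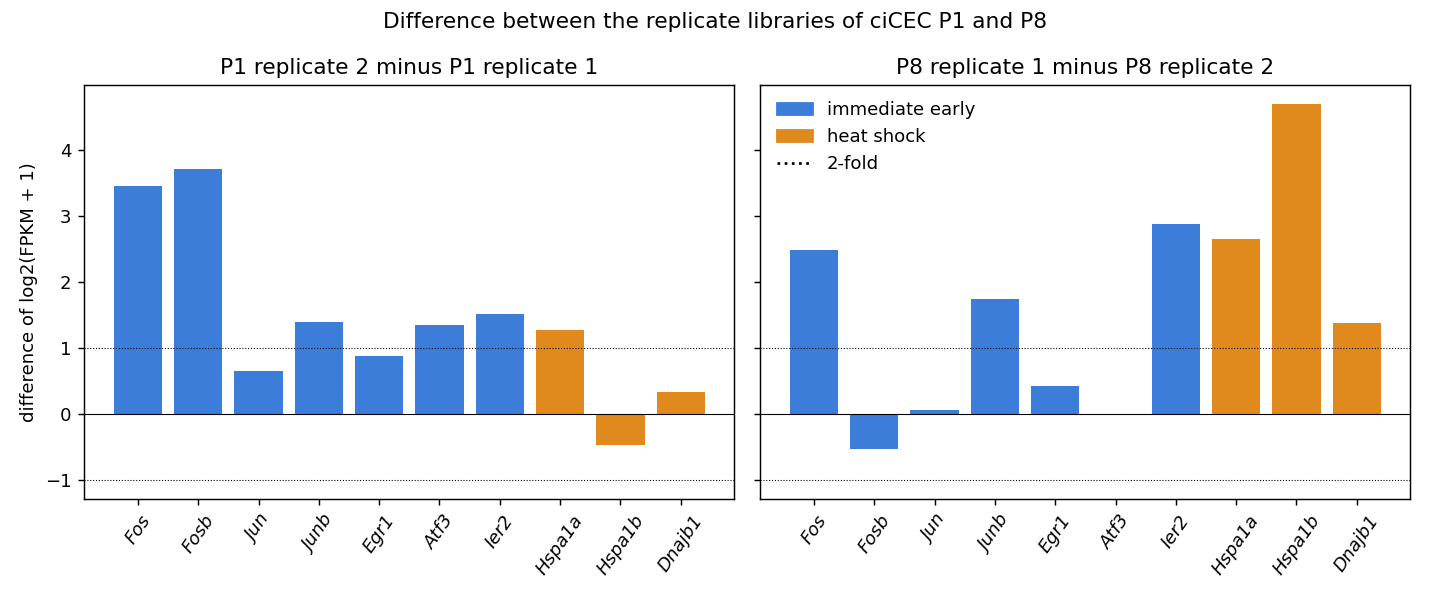
Difference of log2(FPKM + 1) between the replicate libraries of P1 (replicate 2 minus 1) and of P8 (replicate 1 minus 2), 1 bar per gene, with dotted lines at 2-fold. In P1 the tallest bars are Fos and Fosb, at 3.46 and 3.72, and in P8 Hspa1b, at 4.70.

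Primary corneal endothelial cells have 1 library, which the fit assumes to vary like the other groups. Against P1 ciCEC, limma called 0 of the 10 genes, with 1 at an unadjusted p under 0.05 (Jun) and 0 by voom, against 2.30% of all genes (1.49% higher and 0.806% lower). Jun, at 35.9 FPKM in pCEC, against 55.2 and 87.9 FPKM in P1, gave -0.94 ± 0.23 on the log2 scale (adjusted p = 0.0736). Without P1 replicate 1, Fos (-3.39, adjusted p = 0.0472), Fosb (-2.81, adjusted p = 0.000478) and Jun (-1.27, adjusted p = 0.000937) were called lower in pCEC. Of the other lists, Chac1 and Asns, both of the integrated stress response, were called higher, at 31.0 and 136 FPKM in pCEC and 4.11 and 41.8 FPKM in P1.

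Against fibroblasts, pCEC had Junb higher and 0 of the 10 genes lower, against 23.3% of all genes (13.1% higher and 10.2% lower). With either P8 library left out, Hspa1b was also called (1.16 ± 0.19 and adjusted p = 0.00106 without P8 replicate 2), at 63.0 FPKM in pCEC and 26.3 to 29.9 FPKM in D0. With P1 replicate 1 or 2 left out, Fosb was called higher (1.19, adjusted p = 0.00473 and 0.00478), at 4.80 FPKM in pCEC and 1.45 to 1.65 FPKM in D0. The lists gave 8 higher and 3 lower of 35 other immediate early genes, 5 and 4 of 19 feedback inhibitors, 3 and 1 of 25 chaperones and 2 and 3 of 14 integrated stress genes. Klf10 and Gadd45b were at 154 and 246 FPKM in pCEC, against 8.63 and 24.2 FPKM in D0. Hspb1 and Hspb8 were at 912 and 155 FPKM in pCEC, against 155 and 42.8 FPKM in D0. The pCEC library also carried 3396 FPKM of epithelial and 29.3 FPKM of fibroblast markers, against 11.6 to 13.8 and 22330 to 23230 FPKM in D0.

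Over the 13 libraries the genes fell into sets that varied together, described here with no test because libraries share groups, cell types and replicate differences. Fosb and Atf3 had the highest pairwise Pearson r of log2(FPKM + 1), 0.954. The 3 heat shock genes followed each other. Their r was 0.899 between Hspa1a and Dnajb1, 0.867 between Hspa1a and Hspa1b and 0.832 between Hspa1b and Dnajb1. The division of reads between Hspa1a and Hspa1b is uncertain, and its part in these r values was not tested. Jun and Hspa1b had the lowest r, -0.087. Fos was closest to the mean of the other 9 genes (r = 0.933) and Egr1 farthest from it (0.358).

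**Figure D4:**
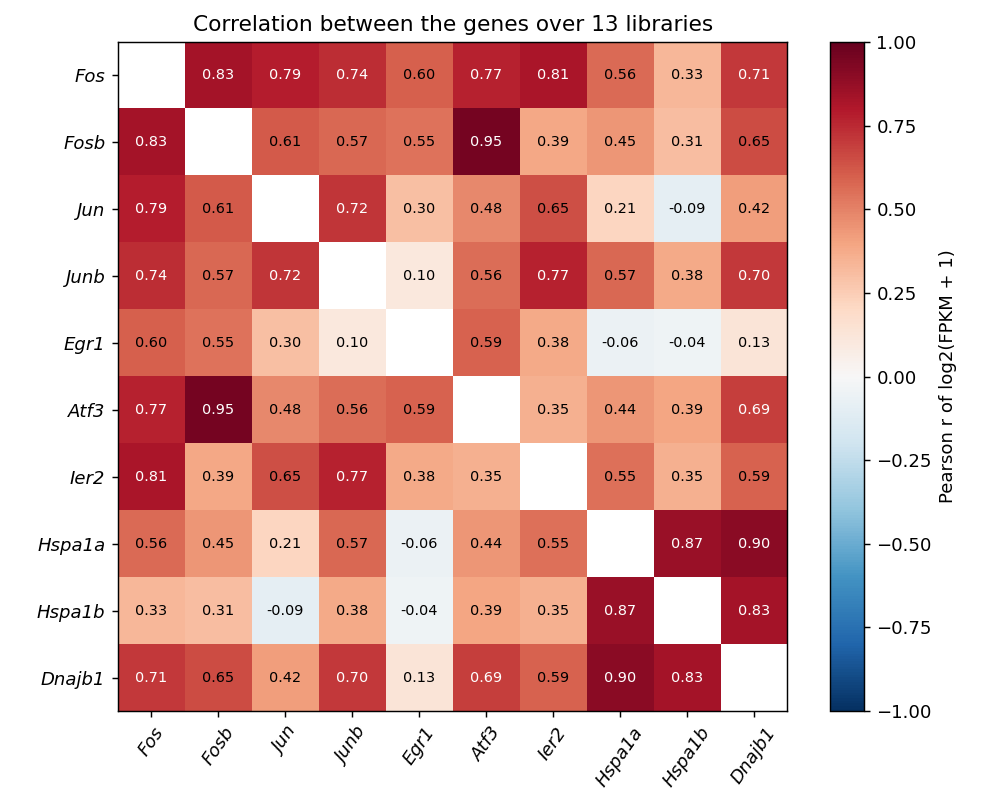
Pearson r of log2(FPKM + 1) over the 13 libraries for each pair of the 10 genes, as colour and number. Fosb with Atf3 (0.954) and Hspa1a with Dnajb1 (0.899) stand highest, and Egr1 is near 0 with Hspa1a, at -0.059.

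Of 11297 genes outside all lists with a mean of at least 5 FPKM in 1 group or more, those whose level over the 13 libraries was most like the mean of the 10 were Bcl2l15 (r = 0.954), BC037156 (0.945), Orm1 (0.941), Arpc2 (0.933) and Tmprss11a (0.922). All of these but Arpc2 reached that minimum through P1 or P8 alone. Bcl2l15 stood at 0.411 FPKM in pCEC, at 0 to 0.606 FPKM in D0, D7 and D12, at 1.13 and 6.91 FPKM in P1 and at 22.5 and 5.30 FPKM in P8. Arpc2, a subunit of the actin-nucleating Arp2/3 complex, was alone among the 5 in being abundant everywhere, at 264 to 457 FPKM. BC037156 and Tmprss11a were listed at 0 in every D0 library, so their gene lengths could not be checked there.

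**Figure D5:**
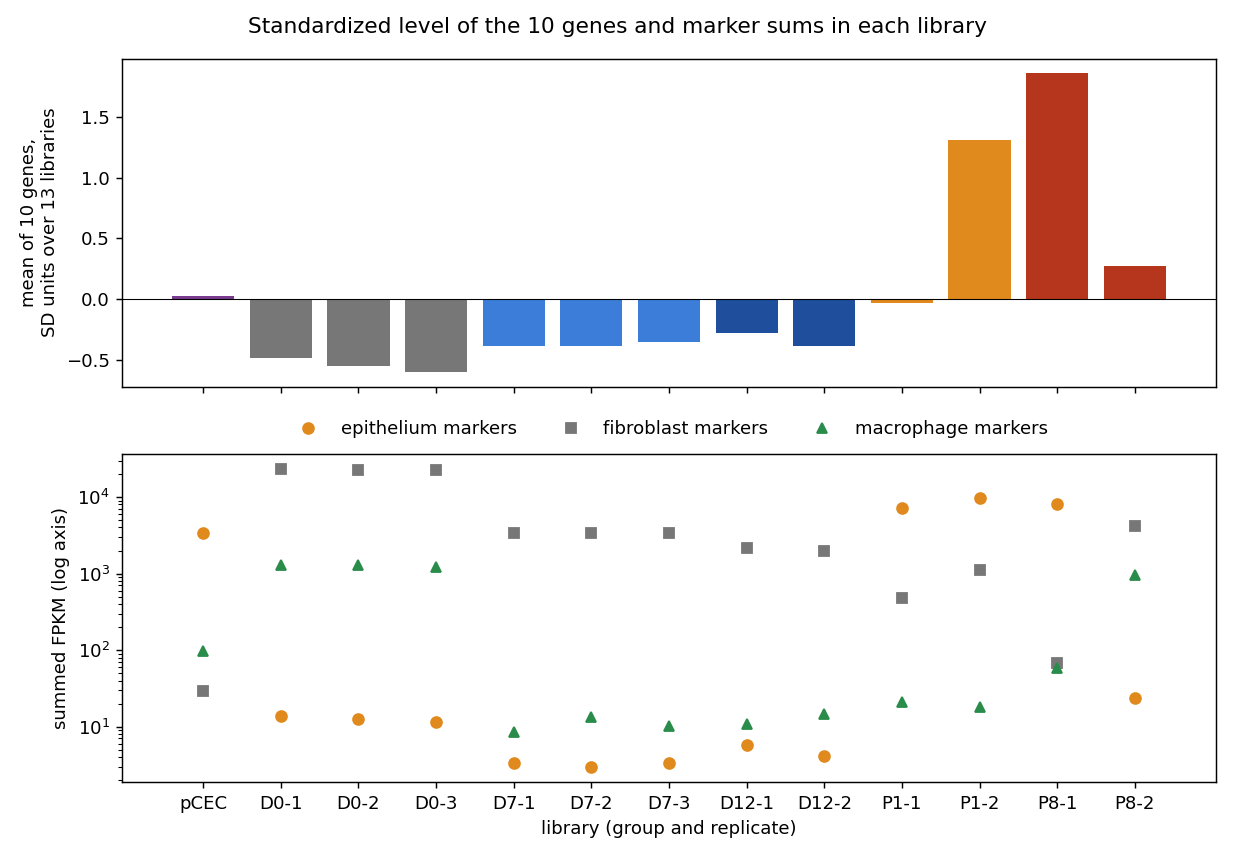
Top, mean of the 10 genes in each library after each gene was scaled to mean 0 and SD 1 over the 13 libraries. Bottom, summed FPKM of epithelial, fibroblast and macrophage markers on a logarithmic axis. P8 replicate 1 (1.86) and P1 replicate 2 (1.31) stand highest, with epithelial marker sums of 8158 and 9665 FPKM. P1 replicate 1 stands at -0.03, with a sum of 7090 FPKM.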

How the data were processed

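RNA was extracted with Trizol and made into libraries with the Illumina TruSeq kit, per the labels' protocols. The deposited table gives FPKM values made by the authors. The submitters' processing notes name Bowtie 0.12.2 as well as mm8 and mm10, without roles. All columns of values were used (0 unused). The table's ID column fits D0 only. The other groups follow the slot order of a hash table of 131072 slots, and a gene was placed where that order allowed it, within 6 probes, and where its FPKM gave whole reads (within 0.001) in every library, using the mean GENCODE M21 transcript length. With the D0 IDs hidden, 25078 of 25084 placed genes were right with 3 libraries, 23868 of 23872 with 2 and 20971 of 20982 with 1. Gene lengths had been checked or set on D0 with those IDs, so this check was partly fixed in advance. Of genes at a mean of 1 FPKM or more, 99.15%, 98.95% and 95.96% were placed right, in the same order. For genes treated as without D0 reads, 4520 of 4520 placed genes were right with 2 libraries. Of those at 1 FPKM or more, 92.42% were placed right. Spearman's rho between groups was 0.013 to 0.094 line by line and 0.713 to 0.983 after placement. Within groups it was 0.836 to 0.926 and 0.76 to 0.993. The first range of each pair is over all deposited lines. The second is over kept genes with at least 1 FPKM in a library, so the gene sets differ. Of 54232 genes, 44297 were kept, 9857 having been unresolved in at least 1 group.

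From these values limma 3.58.1 (R 4.3.3) was fitted to log2(FPKM + 1), with 1 mean per group over all 13 libraries, a trended prior and 7 residual degrees of freedom, for the 16249 genes with at least 1 library at 1 FPKM. On simulated data it was checked to recover known changes. FPKM are not counts, so voom on recovered reads was an alternative. Other alternatives were pseudocounts of 0.1 and 5, a filter at 5 FPKM or none, median-of-ratios factors, fits of the groups compared, a replicate block and each library left out. The genes and lists were chosen with earlier results of these data known. All 10 genes are named, and of each other list up to 4 called genes per comparison, those with the largest change. Promoters and motifs come from RefSeq (GRCm38.p6), and gene positions from GENCODE M21.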

Additional observations from a re-analysis of the deposited data

How the results depend on the processing

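The number of the 10 genes called moved with single libraries. Leaving out 1 library at a time gave 0 to 3 in D7 against D0 (2 with all libraries), 0 to 1 in D12 against D7 (0), 0 to 4 in P1 against D12 (2), 1 to 7 in P1 against D0 (3), 0 to 4 in P8 against P1 (1), 0 to 3 in pCEC against P1 (0) and 0 to 2 in pCEC against D0 (1). Over all genes the counts ran 3095 to 4161, 30 to 103, 2713 to 5378, 2299 to 4142, 121 to 3666, 232 to 1578 and 2814 to 5069 in the same order. A pseudocount of 5 called 1 of the 10 genes in D7 against D0, where Jun dropped under the fold limit, and 4 in P1 against D0, as did the filter at 5 FPKM, where Hspa1a was added (1.38 and 1.98). Voom called 1 in P1 against D12. Without a fold limit Egr1 was added in P1 against D0. Fits of the groups compared alone called 3 in D7 against D0, 1 in D12 against D7, 3 in P1 against D12, 5 in P1 against D0, 0 in P8 against P1 and 3 in pCEC against D0. The replicate block called 1 in D7 against D0, without Junb (adjusted p = 0.0542), and 0 in P8 against P1, and the 2 genes it called in P1 against D0 lacked Junb (0.0558). It changed no other call of the 10. Replicate numbers were not taken as pairs, since no label ties them. Deviations from the group means of same-numbered libraries correlated at -0.054 to 0.020 between D0 and D7, the groups with 3 numbers. Over the pairs of groups that share 2 numbers they ran between -0.245 (D0 with D12, number 1) and 0.182 (D12 with P1). In a group of 2 libraries the deviations mirror each other. Between 2 such groups, as D12 and P1, both numbers therefore give the same single value.

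Over all genes a pseudocount of 5 called 2009 in D7 against D0, 26 in D12 against D7, 2807 in P1 against D12, 2023 in P1 against D0, 113 in P8 against P1, 201 in pCEC against P1 and 2373 in pCEC against D0. D12 against D7 had 27 calls with a pseudocount of 0.1, 25 with the filter at 5 FPKM, 28 by voom, 27 with the replicate block and 155 in a fit of its groups alone. P8 against P1 had 139 with the filter, 77 with the block and 0 in a fit of its groups alone, and pCEC against P1 had 216 with the filter, 228 by voom and 0 in a fit of its groups alone. Without a fold limit, D7 against D0 had 6798. The cause of these shifts was not tested.

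Of 1430 member values recomputed, 1314 kept direction and call, 38 lost a call, 45 gained one and 33 changed sign, in no case on a called value. Under median-of-ratios factors the sign changed for Junb (0.006) and Atf3 (0.023) in D12 against D7, for Atf3 in pCEC against P1 (-0.002) and for Fos in pCEC against D0 (-0.056), and with a pseudocount of 5 for Ier2 in P1 against D12 (0.005). With 1 library left out, log2 fold changes that crossed 0 ran as follows. In D7 against D0 they ran -0.242 to 0.003 for Hspa1a. In D12 against D7 they ran -0.116 to 0.106 for Atf3 and -0.071 to 0.234 for Fos. In P1 against D12 they ran -0.359 to 0.302 for Jun, -0.484 to 0.400 for Egr1, -0.774 to 0.752 for Ier2, -0.623 to 2.842 for Fos and -0.196 to 1.206 for Junb. In P1 against D0 they ran -0.017 to 3.447 for Fos and -0.061 to 1.465 for Ier2. In P8 against P1 they ran -0.055 to 3.410 for Fos, -0.074 to 3.648 for Fosb, -0.530 to 1.214 for Junb, -0.742 to 2.134 for Ier2, -4.426 to 0.278 for Hspa1b and -1.170 to 0.213 for Dnajb1. In pCEC against P1 they ran -0.366 to 1.036 for Junb, -0.183 to 0.70 for Egr1, -0.615 to 0.733 for Atf3, -3.390 to 0.075 for Fos, -2.812 to 0.910 for Fosb and -1.269 to 0.256 for Ier2. Depth is known only through the recovered totals.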
